A study of Mus musculus with 9 samples.

Results

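The genes described here make, convert or break down leukotrienes and prostaglandins. They are 10 named members out of 29288 genes in the count table, and all 10 were in that table. They were chosen by their known enzymatic roles and not by a measured value, although earlier results of these data were known. The RNA came from intestinal epithelial cells (IECs) of the proximal small intestine of WT C57BL/6J female mice, which the study's methods place at 7–10 weeks of age. Crypt cells were released by digestion and sorted live as EpCAM+ cells negative for Ter119, CD31 and CD45. The control group (n = 3) received PBS and was sampled at 18 h, and the other groups (n = 3 each) received 2 µg of αGalCer by intraperitoneal injection and were sampled later, at 18 h in 1 group, called 18h-αGal, and at 72 h in the other, called 72h-αGal. αGalCer is a glycolipid that is presented by CD1d and activates natural killer T (NKT) cells, and the libraries address how IECs respond to that activation. The NKT cells themselves were not in the sorted material. Every control was taken at 18 h, so at 72 h the treatment and the time of sampling cannot be told apart. The 3 libraries of a group were taken as separate mice, as the methods give 3 mice per group.

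Leukotrienes and prostaglandins are short-lived lipid mediators made from arachidonic acid, which the cytosolic phospholipase Pla2g4a cuts from membrane lipids. In the leukotriene branch, Alox5 oxidises arachidonic acid with the help of its membrane partner Alox5ap, and the product leukotriene A4 becomes leukotriene C4 through Ltc4s or leukotriene B4 through Lta4h. In the prostaglandin branch, Ptgs1 and Ptgs2 form prostaglandin H2, from which Hpgds makes prostaglandin D2 and Ptges makes prostaglandin E2, and Hpgd inactivates prostaglandins. In the small intestine, tuft cells, a rare chemosensory epithelial type, are known for expressing much of this set, including Alox5, Alox5ap, Ltc4s, Ptgs1 and Hpgds.

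The stretch upstream of the RefSeq gene start was read for the members on the mouse build GRCm38.p6, in which 9 of the 10 members had an entry, with 10 start sites in all. Shown here are the members that passed the test in a comparison, Alox5 and Hpgd, and the single member with a POU octamer, the DNA word bound by the tuft cell factor Pou2f3 and its relatives. The Alox5 stretch is the 250 bases before the start on the minus strand (chr6:116461179-116461428), and capitals mark a GC box (GGGCGG, the word bound by SP1). The Hpgd stretch runs from 250 to 45 bases before the start on the plus strand (chr8:56294302-56294507), and capitals mark a GC box read on the opposite strand. The Hpgds stretch is 30 bases on the minus strand (chr6:65144886-65144915), and capitals mark the octamer ATGCAAAT. All are written 5′ to 3′ on the strand of the gene.
Alox5: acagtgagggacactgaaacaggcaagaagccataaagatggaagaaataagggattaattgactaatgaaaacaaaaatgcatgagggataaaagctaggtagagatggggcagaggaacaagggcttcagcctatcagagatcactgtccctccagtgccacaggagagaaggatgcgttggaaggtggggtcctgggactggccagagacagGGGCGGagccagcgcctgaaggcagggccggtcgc
Hpgd: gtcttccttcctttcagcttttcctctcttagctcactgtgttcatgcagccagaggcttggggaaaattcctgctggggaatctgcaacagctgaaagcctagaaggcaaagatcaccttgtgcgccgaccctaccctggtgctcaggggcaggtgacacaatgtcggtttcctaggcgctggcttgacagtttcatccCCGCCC
Hpgds: ctttactctttATGCAAATacgttggacta

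Words were searched on both strands over the 250 bases before each start. The octamer lay 174 bases before the Hpgds start and in no other member window, and 1.6% of 32851 mouse promoters of the same length held it. The GC box was in 4 of the 10 member windows, those of Alox5 (35 bases before the start), Ptgs2, Ptges and Hpgd (50 bases before the start), against 32.7% of all promoters. The core of the interferon-stimulated response element, GAAA followed by NN and again GAAA, was in 0 member windows and in 2.98% of all. These are matches of letters only.

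The depth of the libraries ranged from 8887861 counts (control replicate 3) to 32722293 counts (control replicate 1), so 3 counts corresponded to between 0.0917 and 0.338 CPM (counts scaled to the library total). Control replicate 3 also stood apart on the second principal component of the 500 most variable genes, at 46.2 where the other 8 libraries lay between -14.6 and -0.01. Fold changes of the members most unlike the other controls in that library are also given without it. All 10 epithelial markers, among them Epcam and Cdh1, were abundant, with a summed normalised count between 108617 and 158914 in every library. Normalised counts are raw counts divided by a size factor of the library, as deposited.

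Expressed per kilobase of the canonical transcript, the members differed widely in level in control IECs. Lta4h was highest, at 2099 ± 467 normalised counts per kb (SD, n = 3), followed by Hpgd at 714 ± 157 and Pla2g4a at 153 ± 71.9. The ranges of these 3 genes did not overlap each other. Ltc4s (50.3 ± 37.7), Hpgds (46.9 ± 29.9), Alox5 (45.7 ± 12.3), Ptgs1 (24.4 ± 8.61) and Alox5ap (16.8 ± 2.27) came next on the same scale. Each of these overlapped its neighbour in this order, as did Pla2g4a and Ltc4s. Genes further apart in the order could still be separated: Alox5 (32.8 to 57.3 per kb) lay wholly above Alox5ap (15.3 to 19.4), and Pla2g4a (72.4 to 211.0) lay wholly above Hpgds, Alox5, Ptgs1 and Alox5ap. The wide spread of Ltc4s came with control replicate 3, at 7.20 per kb, where the highest control was at 77.4. Ptges (2.14 ± 2.68) and Ptgs2 (1.47 ± 1.63) lay lowest, overlapped each other and were separated from Alox5ap. Control IECs thus held the hydrolase Lta4h and the prostaglandin-degrading Hpgd at far higher RNA levels than the inducible enzymes Ptgs2 and Ptges.

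**Figure D1:**
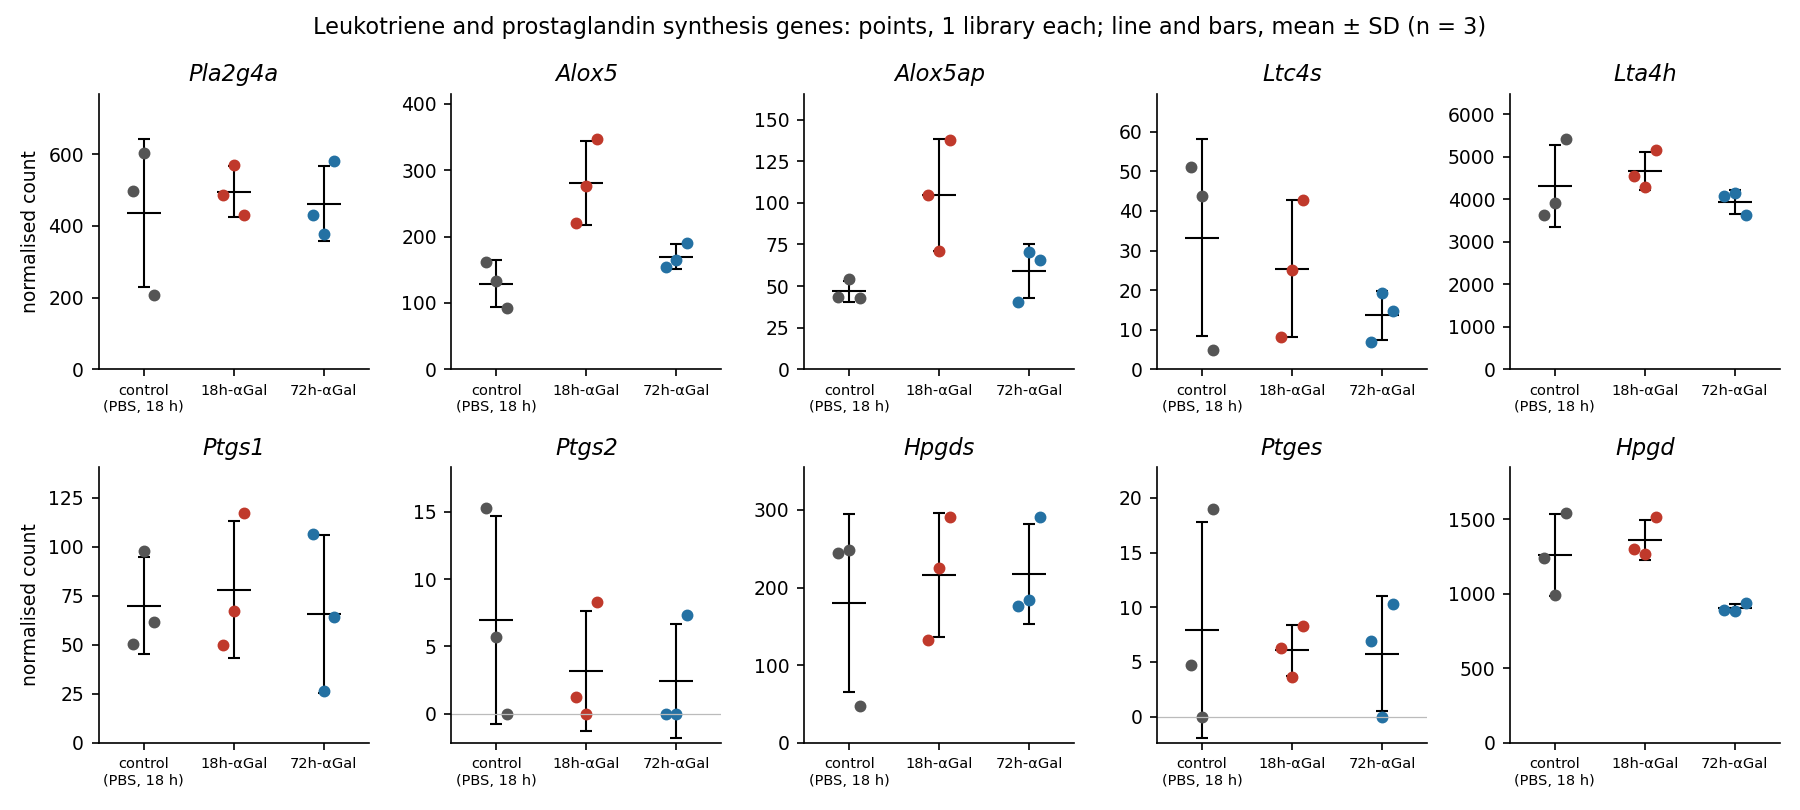
Normalised counts of the 10 members (y axis, from 0 or below where the SD bar crosses 0) in control, 18h-αGal and 72h-αGal libraries (x axis), where each point is a library and the line and bars give the mean ± SD of 3. The 3 Alox5 points of 18h-αGal, from 220.1 to 346.3, lie above all other Alox5 points, and the 3 Hpgd points of 72h-αGal, from 882.5 to 937.5, lie below all other Hpgd points.

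At 18 h after αGalCer, Alox5 was the member called, at 2.14 times the control level. Its partner Alox5ap stood at a similar ratio without passing the test, and the remaining members differed little from control or varied too much between libraries to be separated from it. Of the 8 members with enough counts to be tested, 1 was called higher and 0 lower. Over all 18933 genes tested, 5.96% were called in this comparison, 3.27% higher and 2.69% lower. The share called among the members was that of a single gene, Alox5. With upper-quartile scaling the split over all genes turned from 619 higher and 509 lower to 479 higher and 670 lower, and the count for the members did not move. The median log2 fold change was 0.16 over the 8 members and -0.03 over all genes.

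Alox5 (ENSMUSG00000025701, GRCm39 chr6:116387032-116438139, minus strand) carries out the first steps of leukotriene synthesis. Its normalised counts were 162.1, 132.9 and 92.7 in control, 220.1, 275.8 and 346.3 in 18h-αGal, and 154.1, 165.4 and 189.9 in 72h-αGal, for replicates 1, 2 and 3. Every 18h-αGal library exceeded every control and every 72h-αGal library. Against control, the log2 fold change at 18 h was 1.10 ± 0.28 (SE; 95% interval 0.51 to 1.69; edgeR adjusted p = 0.0302). It rested on few mice: the adjusted p was 0.0774 without control replicate 2, 0.0609 without control replicate 3 (log2 fold change 0.92), 0.097 without 18h-αGal replicate 2, 0.0919 without 18h-αGal replicate 3 and 0.0502 without 72h-αGal replicate 1. It was 0.0749 when only the libraries of both groups compared were fitted, and the log2 fold change stayed between 0.92 and 1.30 under all 18 alternatives. Alox5 shares 449 exon bases with Gm67658 on the opposite strand, which was not in the count table. The strand setting of the counting was not stated.

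Alox5ap (ENSMUSG00000060063, chr5:149196003-149227762, plus strand), which presents arachidonic acid to Alox5, had 43.5, 54.1 and 42.8 normalised counts in control. It had 104.7, 71.0 and 138.0 in 18h-αGal, and 40.5, 70.6 and 65.5 in 72h-αGal. The 18h-αGal libraries lay above every library of the other groups, narrowly so over 72h-αGal replicate 2. The log2 fold change at 18 h was 1.15 ± 0.41 (95% interval 0.28 to 2.03; unadjusted p = 0.0134; edgeR adjusted p = 0.117), so it was not called. Alox5 and Alox5ap were the members whose 18h-αGal range lay wholly above control, 2 of 8, and 11.9% of all genes tested did so. Alox5ap shares 189 exon bases with Gm19719 on the opposite strand, which had a mean of 0 normalised counts in control and 23.6 in 18h-αGal, and the strand setting of the counting was not stated.

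Downstream of Alox5, the spread between libraries was wide for Ltc4s, which joins glutathione to leukotriene A4, and narrow for Lta4h, which hydrolyses it. Ltc4s had 51.1, 43.7 and 4.8 normalised counts in control, 8.2, 25.2 and 42.8 in 18h-αGal and 7.0, 19.2 and 14.7 in 72h-αGal. Its libraries overlapped throughout, and at 18 h its log2 fold change was -0.45 with a 95% interval from -2.25 to 1.34. Without control replicate 3 it was -0.93 (edgeR adjusted p = 0.544). Ltc4s also shares 268 exon bases with Gm26542 on the opposite strand, which held 24.8 to 76.4 normalised counts. Lta4h had 3622, 3901 and 5406 normalised counts in control, 4537, 4288 and 5148 in 18h-αGal and 4067, 4141 and 3618 in 72h-αGal. Its log2 fold change at 18 h was 0.12 with an interval from -0.17 to 0.42, so a rise the size of that of Alox5 lay outside the interval.

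The members upstream and in the prostaglandin branch gave no call at 18 h. Pla2g4a, which supplies arachidonic acid to both branches, had 498.6, 602.7 and 206.8 normalised counts in control and 486.1, 571.3 and 429.1 in 18h-αGal, a log2 fold change of 0.17 (95% interval -0.51 to 0.85), which was -0.15 without control replicate 3. Ptgs1, the constitutive cyclooxygenase, had 50.5, 97.8 and 61.8 in control and 49.8, 67.4 and 117.3 in 18h-αGal, a log2 fold change of 0.15 (-0.95 to 1.25). The groups overlapped for both genes. Hpgds had 244.9, 247.7 and 47.5 in control and 132.4, 225.5 and 291.1 in 18h-αGal, a log2 fold change of 0.22 (-0.86 to 1.30), and its lowest value was in control replicate 3. Without that library the log2 fold change of Hpgds was -0.20. Ptgs1 shares 148 and Hpgds 431 exon bases with opposite-strand genes that reached at most 13.8 and 25.8 normalised counts.

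Ptgs2, the inducible cyclooxygenase, and Ptges, the inducible prostaglandin E synthase, did not pass the filter on low counts. Ptgs2 had 26, 6 and 0 raw counts in control, 2, 0 and 6 in 18h-αGal and 0, 0 and 10 in 72h-αGal. Ptges had 8, 0 and 8 raw counts in control, 10, 4 and 6 in 18h-αGal and 6, 0 and 14 in 72h-αGal. Both genes thus had at most 26 raw counts in any library. Ptgs2 shares 476 and Ptges 317 exon bases with opposite-strand genes that were not in the count table. Without the filter, edgeR gave Ptgs2 a log2 fold change of -1.21 at 18 h (adjusted p = 0.814) and Ptges one of -0.29 (adjusted p = 0.976). A fall or a small rise in either gene was not detectable at this depth. Alox15, a lipoxygenase described below, had 10, 6 and 2 raw counts in control and was called higher at 18 h. Among its control libraries, at 5.9, 5.7 and 4.8 normalised counts, the spread was smaller than for Ptgs2 and Ptges. The size of rise that could have been called for either of those genes was not tested.

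At 72 h after αGalCer, 0 of the 8 members tested were called against control with edgeR, and 0 with DESeq2. Only 0.0264% of all genes, 5 in number, were called by edgeR in this comparison, and at an unadjusted p under 0.05 the count was 1 member, Hpgd, beside 5.94% of all genes. Alox5 differed from control by 0.39 ± 0.28 on the log2 scale (95% interval -0.20 to 0.98; edgeR adjusted p = 0.891), and Alox5ap by 0.34 ± 0.41 (interval -0.53 to 1.22; edgeR adjusted p = 0.958). The intervals of both reached from below 0 to a size near the 18 h values, so neither a return to the control level nor a lasting difference was shown. Pla2g4a, Ptgs1 and Hpgds had 430.9, 376.2 and 579.9, then 106.6, 26.2 and 64.0, then 176.1, 184.6 and 291.4 normalised counts in 72h-αGal. These overlapped the control libraries. Their log2 fold changes against control were 0.08, -0.09 and 0.25, and those of Lta4h and Ltc4s were -0.11 and -1.30. The median over the 8 members was near 0, as was that over all genes.

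Between the time points after αGalCer, Hpgd was the member called, at 0.669 times its 18h-αGal level at 72 h. Alox5 and Alox5ap stood at lower ratios, 0.611 and 0.570, without passing the test. Of the 8 members, 1 was called lower and 0 higher, against 10.2% of all genes called, 4.18% higher and 6.04% lower. With upper-quartile scaling the split over all genes turned from 792 higher and 1144 lower to 1019 higher and 845 lower, and Hpgd was then not called (edgeR adjusted p = 0.0538). This scaling moved the median log2 fold change of all genes from 0.05 to 0.12. Ranges in 72h-αGal lay wholly below those in 18h-αGal for 4 of 8 members (Alox5, Alox5ap, Lta4h and Hpgd), beside 16% of all genes, and the median log2 fold change was -0.41 over the members and 0.05 over all genes.

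Hpgd (ENSMUSG00000031613, chr8:56747543-56774082, plus strand) oxidises and inactivates prostaglandins. It had 1238.7, 990.0 and 1540.6 normalised counts in control, 1296.4, 1267.5 and 1510.9 in 18h-αGal and 889.6, 882.5 and 937.5 in 72h-αGal. All 3 72h-αGal libraries lay below every library of the other groups, and they varied little among themselves. The log2 fold change of 72h-αGal against 18h-αGal was -0.58 ± 0.15 (95% interval -0.91 to -0.25; edgeR adjusted p = 0.0267). Against control it was -0.45 ± 0.15 (interval -0.78 to -0.13; unadjusted p = 0.00997; edgeR adjusted p = 0.81), and this was the sole member range wholly below control at 72 h, as for 5.9% of all genes. The call between time points was lost on leaving out any of the 6 libraries compared, with an edgeR adjusted p of 0.0519, 0.0579 and 0.0859 without 18h-αGal replicates 1, 2 and 3, and of 0.0934, 0.0879 and 0.0737 without 72h-αGal replicates 1, 2 and 3. The log2 fold change stayed between -0.62 and -0.50.

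For Alox5 the same contrast gave -0.71 ± 0.27 (95% interval -1.29 to -0.13; unadjusted p = 0.0206; edgeR adjusted p = 0.12), and for Alox5ap -0.81 ± 0.40 (edgeR adjusted p = 0.238). Neither was called, although the groups did not overlap. The contrasts of 18h-αGal with control and of 72h-αGal with 18h-αGal share the 18h-αGal libraries, so their opposite signs for Alox5 and Alox5ap are not separate observations.

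**Figure D2:**
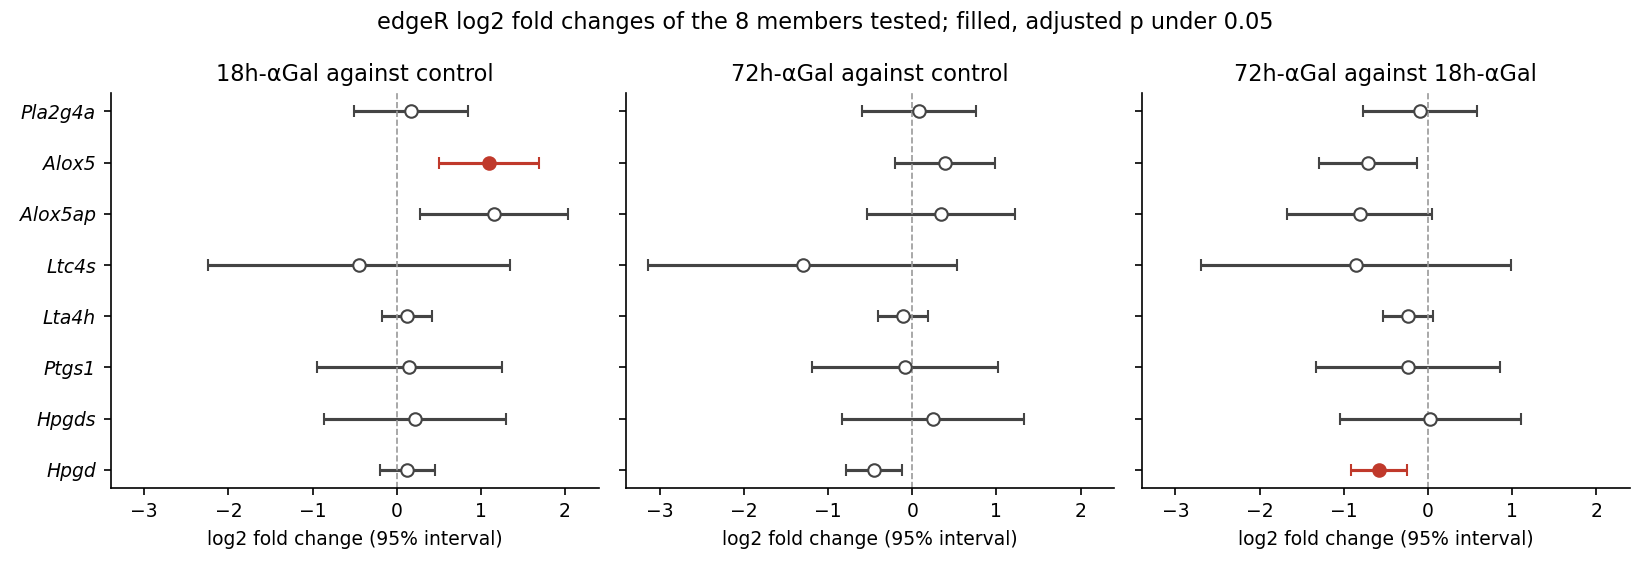
edgeR log2 fold changes (x axis, with 95% intervals) of the 8 members tested (y axis) in the 3 comparisons, with filled points for an adjusted p under 0.05. The filled points are Alox5 at 1.10 in 18h-αGal against control and Hpgd at -0.58 in 72h-αGal against 18h-αGal, and the intervals of Ltc4s are the widest.

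The rise of Alox5 stood beside higher RNA of tuft cell markers. Of a list of 25 tuft markers without the members, 21 were tested, and 3 were called higher at 18 h against control, where 3.27% of all genes were. Among these were Avil (1.21), an actin-binding protein, and Plcb2 (1.18), a phospholipase C of taste signalling, both as log2 fold changes. None of the 21 was called lower. The list was chosen with earlier results of these data known. Of the 21, 11 had an unadjusted p under 0.05, against 20.8% of all genes, and 1 of these 11 was lower, the taste receptor subunit Tas1r3 (-0.66). Of the same 21, 19 had a log2 fold change above 0, 9 had 18h-αGal ranges wholly above control, against 11.9% of all genes, and the median was 0.75. The summed normalised count of the 24 markers in the table was 6450 to 9948 in control, 10452 to 17342 in 18h-αGal and 7012 to 9572 in 72h-αGal. The sum was lowest in control replicate 3, which was also lowest for Alox5, Ltc4s and Hpgds, and the other controls were at 9276 and 9948. In bulk RNA of a sorted mixture, fewer cells of a type and less RNA per cell cannot be told apart.

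**Figure D3:**
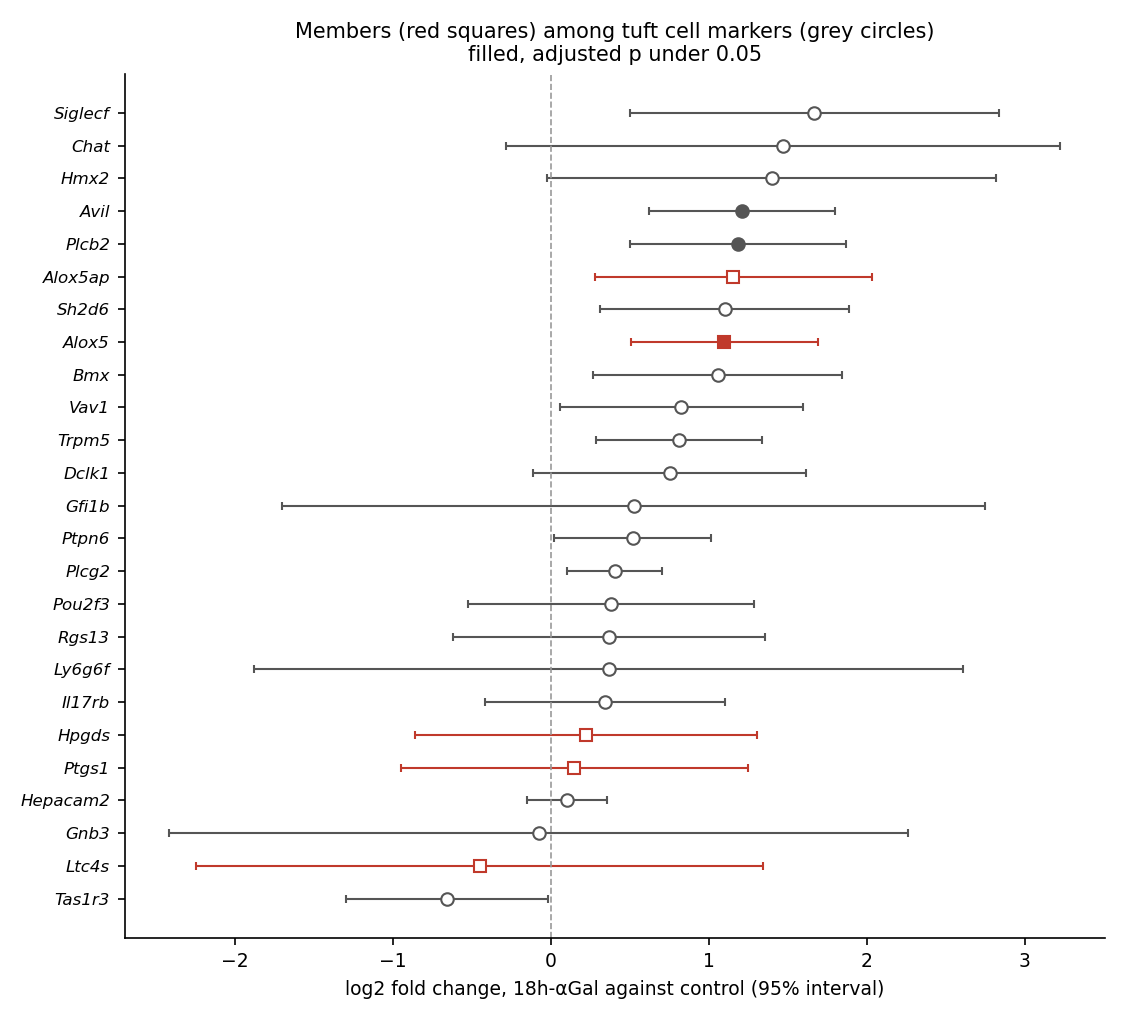
edgeR log2 fold changes of 18h-αGal against control (x axis, with 95% intervals) for 5 members known from tuft cells (red squares) among 20 of the 21 tuft cell markers tested (grey circles), sorted by value, with filled symbols for an adjusted p under 0.05. Alox5 at 1.10 and Alox5ap at 1.15 stand above the median of 0.75 over the 21 markers, and Hpgds, Ptgs1 and Ltc4s stand below it.

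The part of the tuft cell share in the rise of Alox5 was not tested, but the members can be set against the sum. Alox5 was at 17.5, 13.4 and 14.4 normalised counts per 1000 counts of tuft markers in control, 21.1, 19.7 and 19.97 in 18h-αGal and 21.97, 23.0 and 19.8 in 72h-αGal. The ratio was higher than in control in all 6 libraries after αGalCer, and 18h-αGal and 72h-αGal overlapped. The same ratio was 4.69 to 6.63 in control and 5.06 to 10.01 in 18h-αGal for Alox5ap, which overlapped. For Hpgds it was 7.37 to 26.4 in control, 12.7 to 16.8 in 18h-αGal and 25.1 to 30.4 in 72h-αGal, so the 72h-αGal values lay above those of 18h-αGal. These ratios were not tested, and they weight the sum towards its most abundant markers, such as Dclk1 and Trpm5.

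Alox5 and Alox5ap are also known from macrophages, neutrophils and mast cells, so the markers of those cells were read in the same libraries. Of 6 general leukocyte markers, 0 of the 5 tested were called at 18 h, and their summed normalised count was 171 to 218 in control, 64.9 to 138 in 18h-αGal and 128 to 181 in 72h-αGal. The lower sum in 18h-αGal was mostly that of Cd52, with a mean of 114.5 in control and 41.5 in 18h-αGal, whereas Ptprc, which encodes CD45, had a mean of 19.3 in control and 30.3 in 18h-αGal. The part of leukocyte RNA in the rise of Alox5 was not tested. Of 16 markers of macrophages, dendritic cells and neutrophils, 11 were in the table and 0 of the 7 tested were called, with sums of 620 to 739 in control, 591 to 1020 in 18h-αGal and 841 to 1157 in 72h-αGal. These were led by Cd68, which other cells also express. S100a8, C1qa and Fcgr1 were at 0 in all 3 18h-αGal libraries. In control they had 8, 0 and 1, then 54, 0 and 0, then 9, 8 and 0 raw counts. In 72h-αGal, S100a8 and Fcgr1 were also at 0 throughout, and C1qa had 0, 2 and 0 raw counts. In the other direction, Adgre1 had 4 raw counts in each of 18h-αGal replicates 2 and 3 and 0 in all other libraries, and Mpeg1 had a mean of 68.4 normalised counts in control and 114.7 in 18h-αGal (edgeR adjusted p = 0.412). Of 11 mast cell and basophil markers, 7, including Cpa3 and Fcer1a, were not in the table. Kit, which epithelial cells also express, made up nearly all of the sum. Mcpt1 had 0, 0 and 14 raw counts in control and Mcpt2 had 8, 0 and 0, and both were at 0 in 18h-αGal. Tpsb2 had 2, 0 and 0 raw counts in control, 0, 2 and 0 in 18h-αGal and 4, 0 and 8 in 72h-αGal.

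For Hpgd, which absorptive enterocytes express, the enterocyte markers were read. Their summed normalised count was 144200 to 384355 in control, 200650 to 321998 in 18h-αGal and 91824 to 185971 in 72h-αGal. The 72h-αGal sum was below that of 18h-αGal in all 3 libraries, although 0 of the 10 markers were called in any comparison. Per 1000 counts of enterocyte markers, Hpgd was at 4.01 to 6.87 in control, 4.69 to 6.32 in 18h-αGal and 4.75 to 10.2 in 72h-αGal, which overlapped. Per 1000 counts of the 10 epithelial markers it was at 7.96 to 9.69 in control, 8.93 to 9.73 in 18h-αGal and 6.61 to 8.63 in 72h-αGal. On this scale the 72h-αGal values lay below those of 18h-αGal but overlapped control. The part of the enterocyte share in the difference of Hpgd was not tested.

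Beyond the members, the pathway holds other phospholipases, conversion enzymes, transporters and receptors, of which 61 were listed, 51 were in the table and 38 were tested. At 18 h against control, 3 of the 38 were called higher and 0 lower, beside 5.96% of all genes called. They were 1 of 11 other phospholipases A2 (Pla2g4c), the single other lipoxygenase tested (Alox15) and 1 of 8 other prostanoid synthases or reductases (Ptges3). The other roles tested, 5 enzymes of cysteinyl leukotriene conversion or leukotriene B4 breakdown, 3 transporters and 10 receptors, gave no call with edgeR. DESeq2 called 3 receptors in addition, Ptgdr2 and Ptgir lower and Ptger3 higher. Ptgir, the prostacyclin receptor, had 41.7, 45.6 and 35.7 normalised counts in control and 6.3, 0 and 0 in 18h-αGal (edgeR adjusted p = 0.0525). At 72 h against control 0 of the 38 were called with edgeR and 0 with DESeq2, and 2 had an unadjusted p under 0.05 (Pla2g4c and Ptger4, a prostaglandin E2 receptor), beside 5.94% of all genes. Between time points 1 was called higher and 2 lower, beside 4.18% and 6.04% of all genes.

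Pla2g4c, a cytosolic phospholipase A2 of the same family as the member Pla2g4a, rose by a larger ratio than Alox5. It had 150.4, 318.0 and 268.6 normalised counts in control, 796.4, 1445.3 and 1963.4 in 18h-αGal and 113.5, 170.4 and 102.3 in 72h-αGal. Its 18h-αGal libraries lay far above the others, with a log2 fold change of 2.53 ± 0.37 against control (edgeR adjusted p = 0.00343), and it fell by 3.43 from 18h-αGal to 72h-αGal (edgeR adjusted p = 0.000593). Pla2g4a in the same libraries had 0.17 and -0.09 on the same scale. Of the 50-base words of its transcripts, 2.44% also occur in other genes, mainly the pseudogene Pla2g4c-ps.

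Alox15, a lipoxygenase that oxidises arachidonic and linoleic acid at another carbon than Alox5, had 10, 6 and 2 raw counts in control, or 5.9, 5.7 and 4.8 normalised counts. It had 53.6, 75.5 and 69.0 normalised counts in 18h-αGal and 24.3, 4.0 and 17.7 in 72h-αGal. All 18h-αGal libraries stood above all others, with a log2 fold change of 3.55 ± 0.74 against control (edgeR adjusted p = 0.0119). The adjusted p was 0.0519 without control replicate 1 and 0.0582 without 18h-αGal replicate 2. Its level at 72 h was not called against control (edgeR adjusted p = 0.856) or against 18h-αGal (edgeR adjusted p = 0.0636).

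Ptges3, a co-chaperone of Hsp90 that also has prostaglandin E synthase activity, had 2468.5, 2320.8 and 2263.3 normalised counts in control, 4034.8, 4504.0 and 3285.2 in 18h-αGal and 2396.6, 2167.4 and 2094.3 in 72h-αGal. It rose by 0.75 ± 0.13 on the log2 scale at 18 h (edgeR adjusted p = 0.00303) and fell by 0.82 from 18h-αGal to 72h-αGal (edgeR adjusted p = 0.00132). Of its 50-base words, 24.8% also occur in other annotated genes, 17.4% in Gm68507, so its level is uncertain by the reads the counting could have split. The member Ptges, a different enzyme with the same product, had at most 14 raw counts in the same libraries.

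Ptgdr2, a receptor for the Hpgds product prostaglandin D2, had 41, 50 and 0 raw counts in control, 0, 0 and 2 in 18h-αGal and 23, 14 and 64 in 72h-αGal. Reads were thus near absent in 18h-αGal and in control replicate 3. Ptgdr2 also shares 1031 of its 2644 exon bases with Ccdc86 on the opposite strand, and the strand setting of the counting was not stated. Pooled by group, the ratio of 72h-αGal to 18h-αGal was 54.0, with an exact 95% counting interval from 14.6 to 452. That interval covers counting error only and leaves out the spread between mice. The fitted log2 fold change was 5.24 ± 1.503 (edgeR adjusted p = 0.0388), and the call was lost under 9 of 17 alternatives, with adjusted p-values up to 0.156. Among the libraries, leaving out control replicate 1, 18h-αGal replicate 1 or 2, or 72h-αGal replicate 1, 2 or 3 gave 0.0578, 0.105, 0.127, 0.0816, 0.0505 and 0.156.

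**Figure D4:**
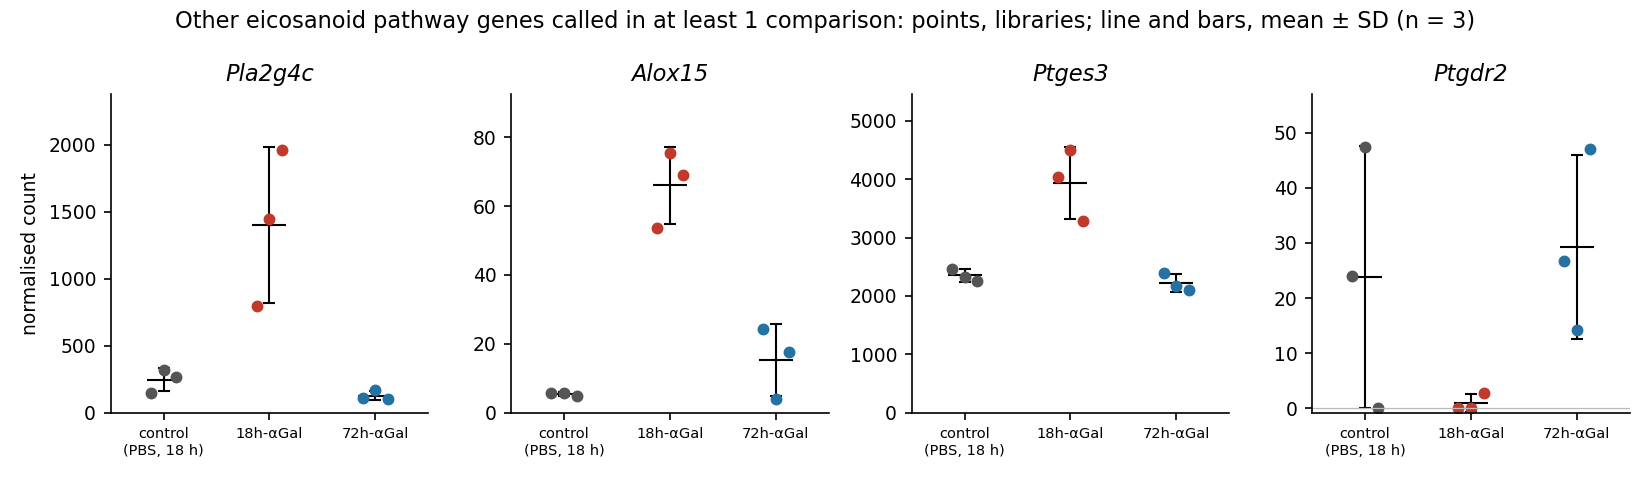
Normalised counts (y axis) of the 4 other pathway genes called in at least 1 comparison in control, 18h-αGal and 72h-αGal libraries (x axis), where each point is a library and the line and bars give the mean ± SD of 3. Pla2g4c, Alox15 and Ptges3 have their 3 highest points in 18h-αGal, and Ptgdr2 has 0 normalised counts in 2 of 3 18h-αGal libraries and in control replicate 3.

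The genes whose pattern over the 9 libraries was most like that of a called member were found by the root mean square difference of gene-centred log2 CPM. For Alox5 these were Snord58b (0.15), Naa20 (0.20), Scpep1 (0.21), Avil (0.21) and Psma3 (0.23), where the median over all genes was 0.70. Avil was also a listed tuft marker, and Snord58b had as few as 4 counts in a library. Alox5ap ranked at place 125 of 18932 by this measure, and the next member was Pla2g4a at place 2588. For Hpgd they were Lmbrd2 (0.09), Bpgm (0.11), Abhd13 (0.11), Vps37a (0.11) and Car13 (0.11), where the median was 0.55. Lta4h, at place 599, was the member closest to Hpgd, and Alox5 was at place 9494.

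**Figure D5:**
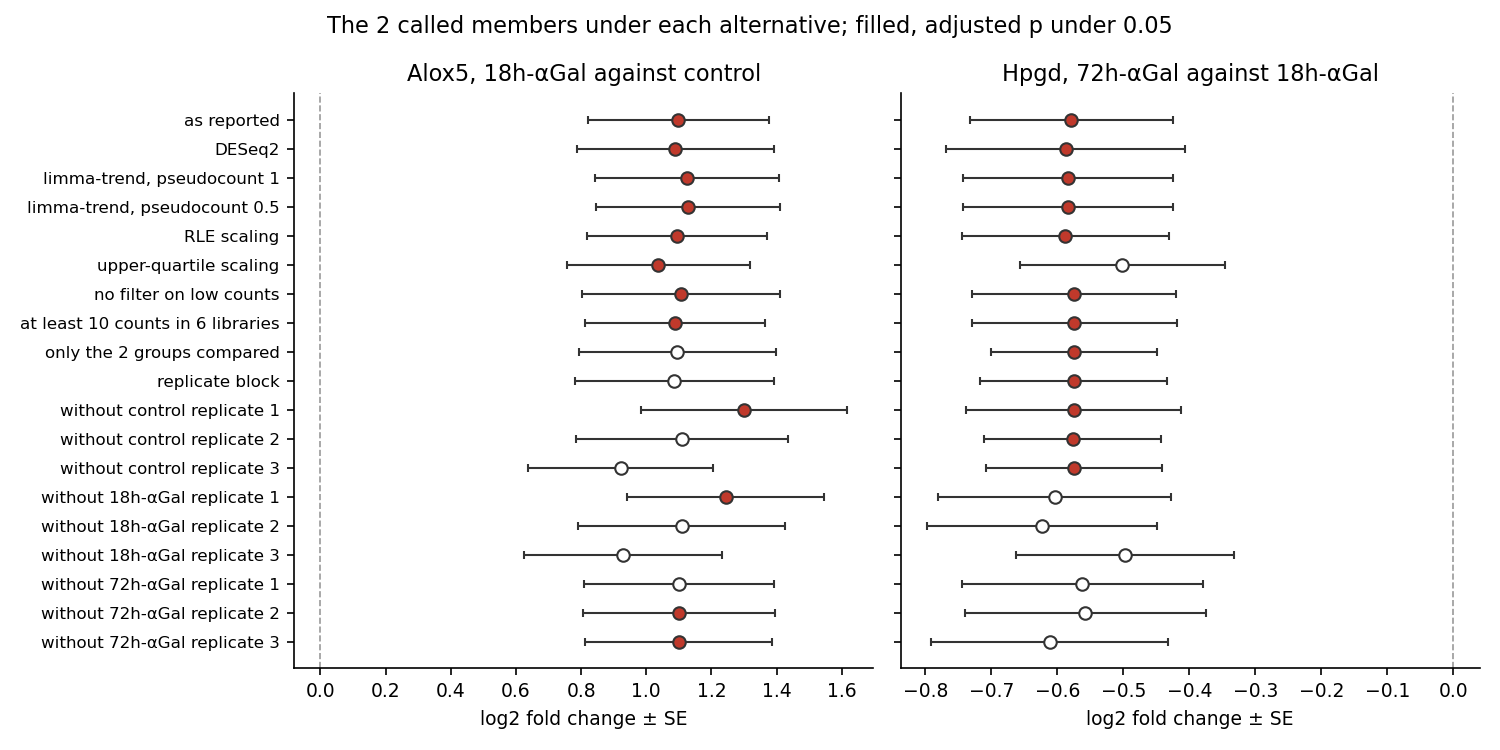
Log2 fold change ± SE (x axis) of Alox5 in 18h-αGal against control (left) and of Hpgd in 72h-αGal against 18h-αGal (right) as reported and under 18 alternative settings (y axis), with filled points for an adjusted p under 0.05. All Alox5 points lie between 0.92 and 1.30 and all Hpgd points between -0.62 and -0.50, and 7 of the 18 alternatives in each panel are unfilled.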

How the data were processed

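RNA from sorted crypt IECs of 9 libraries (3 per group) was made into NEBNext Ultra II Directional, ribosomal RNA-depleted libraries, read at 100 bases and mapped by the authors with HISAT2. The methods name GRCm39, whereas the submitters' processing notes list GRCm38 and mm10 with featureCounts (Subread) and DESeq2 1.42.0, so the build of the counts was not settled. The authors deposited raw read counts per gene and a normalised signal, the count divided by a DESeq2 size factor. They did not state the strand setting, so whether the counts separate a gene from another on the opposite strand is not known.

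Symbols and coordinates came from GENCODE vM39 (GRCm39), which matched 28480 of 29288 gene IDs. Promoter stretches are from RefSeq on GRCm38.p6. Raw counts were tested with edgeR 4.0.16 (filterByExpr, TMM, robust quasi-likelihood F test, two-sided) in a single fit of all 9 libraries, with Benjamini-Hochberg adjustment over 18933 genes and a threshold of 0.05. Intervals of fold changes are 95%, and counting intervals and floors (3 counts) cover counting error only. Replicates of a group differed by 14.2 to 47.5 chi-square per degree of freedom, so no library was taken as a duplicate. The fit was tested on simulated data. The alternatives were DESeq2 1.42.0, limma-trend (limma 3.58.1, pseudocounts 1 and 0.5), RLE and upper-quartile scaling, no filter, at least 10 counts in 6 libraries, a fit of only the groups compared, a replicate block and leaving out each library.

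Named genes were all members, other pathway genes called in at least 1 comparison and the 5 genes most like each called member. Ptger4, Ptgir, Ptger3 and the markers named singly were chosen after their values were seen. The members and all lists were chosen with earlier results of these data known. Akr1b3 was not matched by symbol. A marker gene and a promoter word are not reported here.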

Additional observations from a re-analysis of the deposited data

Results flagged for a closer look

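A direct test of 72h-αGal against 18h-αGal gave an edgeR adjusted p under the threshold for 4 of the named genes. For these, the effects at 18 h and at 72 h, each against the same controls, differed. The 4 came from the 8 members and 38 other pathway genes tested, beside 10.2% of all genes called in this comparison. For the member Hpgd the difference was -0.58 on the log2 scale, for Pla2g4c -3.43, for Ptges3 -0.82 and for Ptgdr2 5.24. Hpgd lost its call under 7 of 18 alternatives and Ptgdr2 under 9 of 17, while Pla2g4c and Ptges3 kept theirs under all 18. The 72h-αGal mice had no controls of their own time, so the time since αGalCer and the time of sampling cannot be told apart in these differences. No group had enough libraries to be examined for a single outlying value.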

How the results depend on the processing

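Of the 643 values of members and named genes recomputed under 18 alternatives, 590 kept their direction and their side of the threshold. A further 25 lost their call, 7 gained a call and 21 turned in sign. Most of the 643 belonged to results that were not called and so had no call to lose. Alox5 at 18 h and Hpgd between time points each lost their call under 7 of 18 alternatives. All 21 turns came from leaving out a library and concerned values that were not called. For 18h-αGal against control, leaving out 1 library gave log2 fold changes of -0.15 to 0.47 (Pla2g4a), -0.25 to 0.49 (Ptgs1), -0.20 to 0.49 (Hpgds) and -0.017 to 0.28 (Hpgd). For 72h-αGal against control they were -0.23 to 0.38 (Pla2g4a), -0.22 to 0.080 (Lta4h), -0.60 to 0.29 (Ptgs1), -0.16 to 0.53 (Hpgds) and -0.26 to 1.17 (Ptgdr2). For 72h-αGal against 18h-αGal they were -0.30 to 0.042 (Pla2g4a), -0.75 to 0.17 (Ptgs1) and -0.25 to 0.30 (Hpgds). The number of members called at 18 h was 0 when only the groups compared were fitted, 0 with the replicate block, and 0 to 1 on leaving out a library. Between time points it was 0 with upper-quartile scaling and 0 to 1 on leaving out a library. Other pathway genes called at 18 h numbered 6 with DESeq2 (Ptgdr2, Ptgir and Ptger3 in addition), 5 without the filter (Ptgdr2 and Ptgir in addition) and 2 to 5 on leaving out a library, with 5 without control replicate 3. Between time points leaving out a library gave 2 to 5, again with 5 without control replicate 3. The cause was not tested.

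Over all genes that each fit tested, the 1128 calls at 18 h became 1720 with DESeq2, 593 when only the groups compared were fitted and 432 to 1556 on leaving out a library. The 5 calls at 72 h became 31 with DESeq2, 13 without the filter, 1 with the replicate block and 0 to 20 on leaving out a library, and the 1936 between time points became 831 to 2593 on leaving out a library. The replicate numbers recur in each group, but same-numbered libraries did not deviate together (r from -0.15 to 0.11 over 9 pairs), and a library correlated best with its own number in 5 of 18 cases. With the replicate block the calls over all genes were 781 at 18 h and 1371 between time points, and Alox5 had an adjusted p of 0.0698. Depth limits Ptgs2, Ptges, Ptgdr2 and Alox15, and Ltc4s with 4.8 normalised counts in control replicate 3.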
